A study of Mus musculus with 27 samples.

Results

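The *Nkx3-2* locus lies on mouse chromosome 5, and these results concern the contacts that 3 viewpoints at this locus made with the other autosomes, chromosomes 1 to 4 and 6 to 19. The units were the BglII restriction fragments of these 18 chromosomes, 796406 of the 949826 fragments listed in each of the 27 libraries. A fragment was called occupied when at least 1 read was assigned to it, and the occupied share of a chromosome was the percentage of its fragments that were occupied. Presence was counted in place of reads, because the 10 fragments with most reads held between 8.77% and 67.9% of all reads on these chromosomes in a library. Dividing by the library's mean over the 18 chromosomes gave the relative share, for which 1 is the average chromosome.

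The libraries came from 4C-seq, in which nuclei are cross-linked, the DNA is cut and ligated, and everything joined to 1 chosen site is amplified and sequenced. Forelimb buds, hindlimb buds and liver of wild-type E14.5 embryos (strain C57BL/6Ncrl in the labels, with no edited allele or treatment in any group) gave 3 replicates each. Each replicate was a pool of 5 to 6 embryos. The viewpoints were the candidate enhancers N1 and N3 and a site downstream of enhancer N2. All were read out from the same template, so agreement between viewpoints is not independent replication. Limb buds hold several cell types and the foetal liver holds many blood-forming cells. No expression was measured, so tissue labels could not be checked against marker genes.

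As background, each chromosome tends to fill its own territory in the nucleus, and a site meets its own chromosome far more often than any other. Among contacts with other chromosomes, gene-dense and GC-rich regions of one chromosome commonly meet such regions of another, which are known as the active compartment. *Nkx3-2* encodes a homeodomain repressor that keeps cartilage cells from maturing.

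The primers that start each library matter for what follows, because some fragments that recurred from library to library carried parts of them. The nested primers of the last amplification are shown 5′ to 3′, with the last 10 bases in capitals. Each matched the GRCm38 reference in full at 1 place, on the plus strand of chromosome 5.
N1 primer, chr5:41165733-41165752: cttgagtttgCCACCCAAAC
N2 primer, chr5:41403985-41404010: gcgatctgaagaactaAGAAGCTTAG
N3 primer, chr5:41535790-41535813: gttgtaagtagcagACACAGAGAT

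Contacts on the other autosomes were sparse, and their number differed strongly between viewpoints. From N1, the 6 limb libraries had occupied shares from 0.0397% to 0.165% (median 0.126%), and the 3 liver libraries had 0.274%, 0.0954% and 0.307%. From N2, the limb libraries ran from 0.33% to 0.842% (median 0.525%), and the liver libraries had 1.27%, 0.447% and 1.29%. From N3, the limb libraries ran from 1.65% to 2.20% (median 1.91%), and the liver libraries had 2.93%, 1.75% and 3.93%. Liver replicates 1 and 3 stood above every limb library for each viewpoint, whereas liver replicate 2 lay within the limb range. Total reads per library were 2984 to 20134 for N1, 165471 to 570405 for N2 and 924023 to 2376866 for N3, and between 64.1% and 95.5% of them fell on the other autosomes. At the N1 depth a chromosome held as few as 10 occupied fragments in a library, against at least 73 for N2 and at least 362 for N3.

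The limb share was 0.531 of the liver share for N1, 0.595 for N2 and 0.702 for N3, as geometric means of 6 against 3 libraries. The exact two-sided permutation test over the 84 arrangements gave p = 0.19, p = 0.167 and p = 0.0595. None of these differences was larger than the spread between replicates allows at 0.05. From N3 the livers had 1971831, 2107951 and 2376866 reads in total, more than any limb library (924023 to 1772337). Depth and tissue thus went together in every N3 comparison of limb with liver, while the totals overlapped from N1 and N2. Without liver replicate 2 the test reached the smallest p that 6 against 2 libraries can give, 0.0357, for N2 and for N3.

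**Figure D1:**
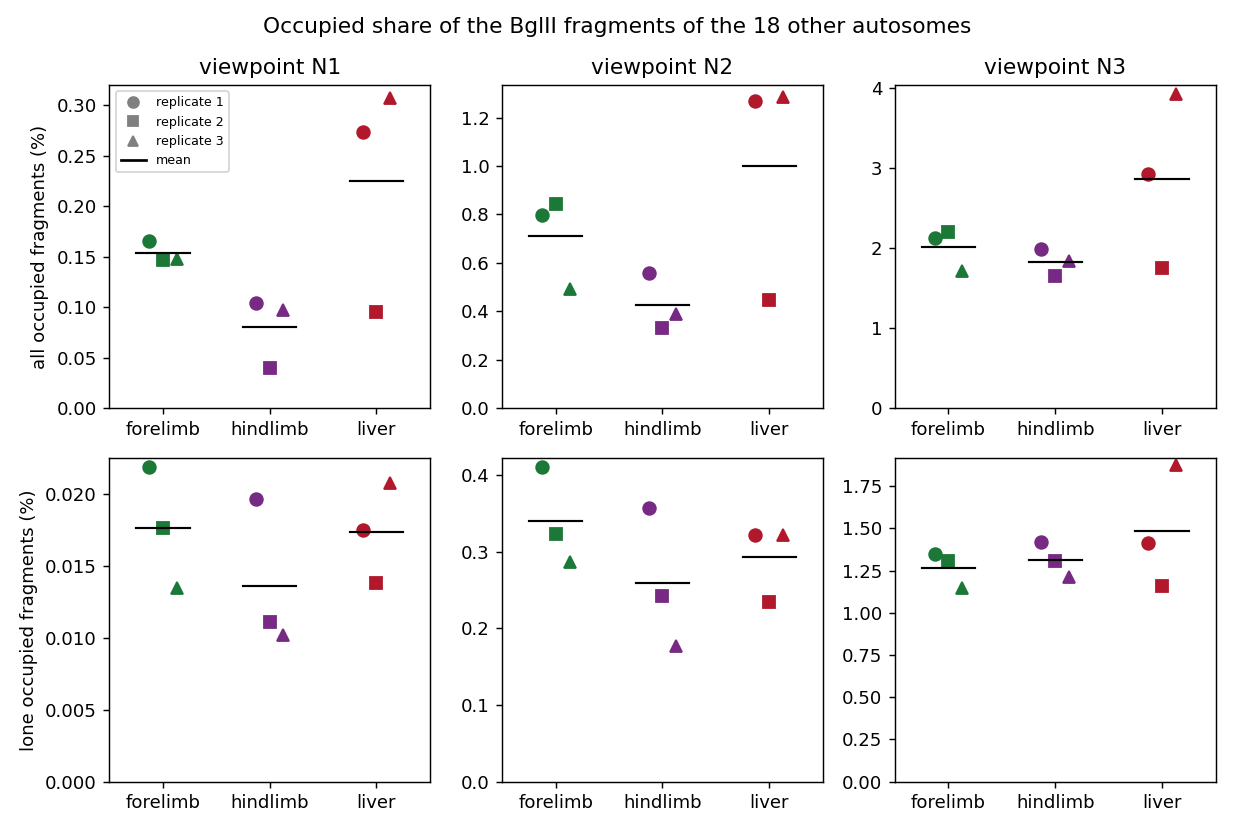
Percentage of the BglII fragments of the 18 other autosomes with at least 1 read (top) and the percentage occupied while both neighbouring fragments held none (bottom), by tissue and viewpoint, with 1 point per library and a line at the mean. In the top row liver replicates 1 and 3 lie above all limb libraries. In the bottom row the tissues overlap for every viewpoint.

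Many contacts lay in pairs of neighbouring fragments. Between 36.4% and 47.3% of occupied N1 fragments directly followed another occupied fragment. The same measure was 13.6% to 38.5% for N2 and 11% to 27.7% for N3. Where exactly 2 neighbours were occupied, both held exactly the same number of reads in 99.1% to 100% of N1 pairs, 91.8% to 97.5% of N2 pairs and 81.6% to 90.3% of N3 pairs. Among pairs with at least 5 reads in the first fragment, equal numbers made up 96.9% to 100% for N1, 63.9% to 95.2% for N2 and 62.4% to 87.9% for N3, with hindlimb replicate 2 lowest from each viewpoint. Whether these were single reads that cross an uncut site and were counted in both fragments was not tested.

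The number of pairs differed between the liver replicates. From N2, liver replicates 1 and 3 held 3489 and 3581 pairs, liver replicate 2 held 772, and the limb libraries held 330 to 1930. Lone occupied fragments, with no read on either side, gave another order. Their share from N2 was 0.177% to 0.41% in the limb libraries and 0.322%, 0.235% and 0.321% in the livers. The limb-minus-liver difference in log2 share, -0.75 over all occupied fragments from N2, was -0.0035 over lone fragments (exact permutation p = 0.988). It moved from -0.91 to -0.19 for N1 and from -0.51 to -0.17 for N3, with exact permutation p = 0.536 and p = 0.298. This comparison of lone fragments was chosen after the pairs were seen.

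The 18 chromosomes were not occupied evenly. Chromosome 11, one of the most gene-dense mouse chromosomes, exceeded the average in 9 of 9 N2 and 9 of 9 N3 libraries, and chromosome 3 stayed under it in as many of both. Mean relative shares ran from 0.862 to 1.12 for N2, from 0.914 to 1.11 for N3 and from 0.806 to 1.15 for N1. The exact sign-flip test over 9 libraries, adjusted by Benjamini-Hochberg over 18 chromosomes, called 4 chromosomes above (22.2%) and 6 below (33.3%) for N2, and 4 above (22.2%) and 5 below (27.8%) for N3. It called none for N1 (0% above and 0% below), where 3 chromosomes had an unadjusted p under 0.05 and the median SD between libraries was 0.177, against 0.0551 for N2 and 0.0407 for N3. Among fragments with reads in at least 1 of the 27 libraries, 0 chromosomes were called from N2 and 0 from N3, and the mean log2 relative share of chromosome 11 was -0.029 and -0.040, against 0.16 and 0.15 over all fragments. That set was picked by the same reads, so a chromosome with more contacts also has more fragments in it. It therefore cannot decide whether the chromosomes differ.

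For N3, chromosome 11 led with a relative share of 1.11 ± 0.06 (SD, n = 9 libraries, exact sign-flip test, adjusted p = 0.0117). Chromosome 9 followed at 1.07 ± 0.03, with libraries between 1.03 and 1.11, and chromosome 8 at 1.06 ± 0.04. At the other end stood chromosome 3 at 0.914 ± 0.035, chromosome 14 at 0.919 ± 0.034 and chromosome 7 at 0.947 ± 0.020. All 6 had the smallest p that 9 sign flips allow, 0.00391. Chromosomes 15 (above) and 1 and 16 (below) were also called.

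For N2, chromosome 11 was at 1.12 ± 0.07, chromosome 19 at 1.10 ± 0.05 and chromosome 18 at 1.10 ± 0.08. Chromosome 2 was the other one called above. The lowest were chromosome 3 at 0.862 ± 0.046, chromosome 12 at 0.903 ± 0.071 and chromosome 10 at 0.909 ± 0.061. Chromosomes 1, 4 and 6 were called below as well. Without the fragments seen in at least 5 of the 9 N2 libraries, the mean log2 relative share of chromosome 18 fell from 0.13 to 0.021, with adjusted p = 0.587.

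From N1 the highest were chromosome 8 at 1.15 ± 0.26, chromosome 18 at 1.15 ± 0.22 and chromosome 13 at 1.13 ± 0.16. Chromosome 3 at 0.806 ± 0.126, chromosome 10 at 0.824 ± 0.135 and chromosome 6 at 0.911 ± 0.184 were lowest. Counting each run of neighbouring occupied fragments once brought 2 N1 chromosomes, 3 and 10, under the threshold at adjusted p = 0.0352.

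N2 and N3 shared 3 calls on the same side, chromosome 11 above and chromosomes 1 and 3 below, which is 30% of the N2 calls and 33.3% of the N3 calls. Across the 18 chromosomes, mean relative shares correlated at r = 0.81 between N1 and N2, r = 0.72 between N1 and N3 and r = 0.81 between N2 and N3. The 18 points share templates, chromosome composition and read mapping, so these values only describe the profiles.

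**Figure D2:**
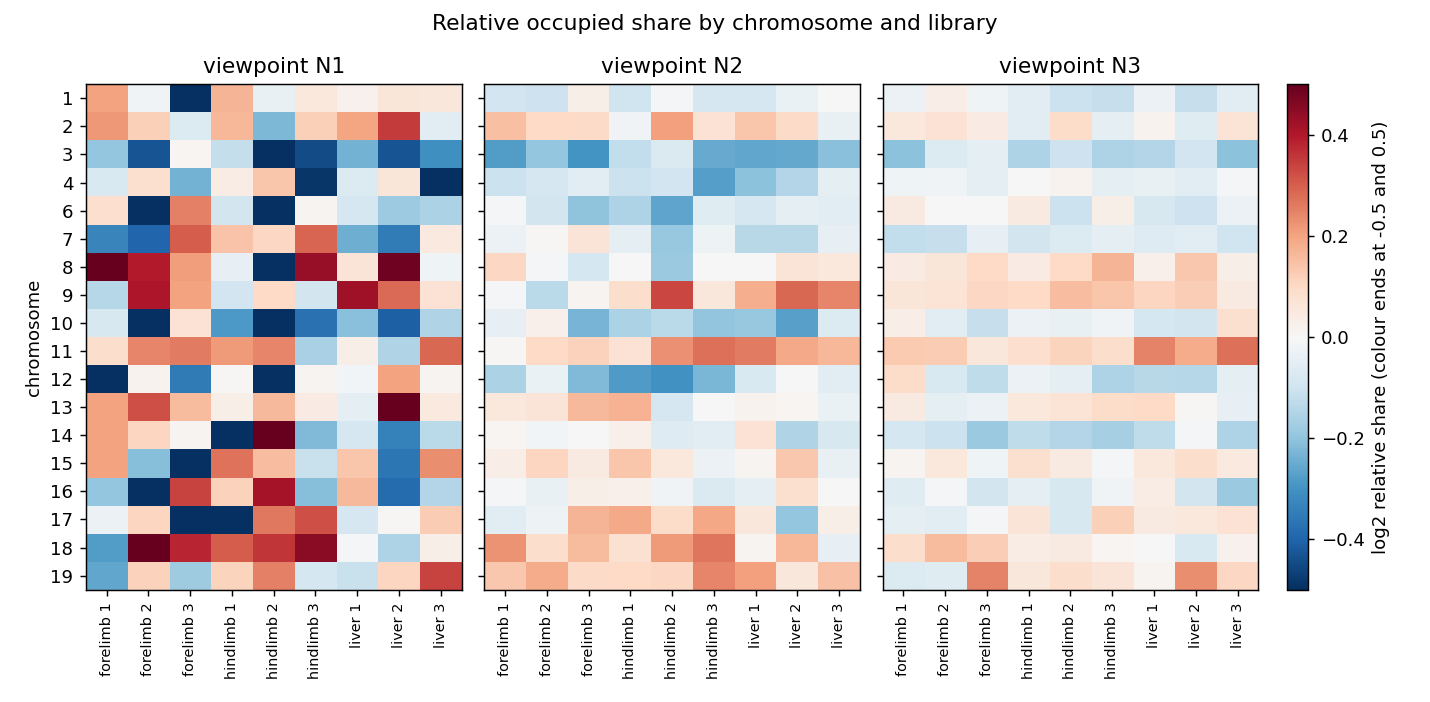
Log2 relative share of each of the 18 chromosomes (rows) in each library (columns), by viewpoint, where red is above the library mean and blue below. Chromosome 11 is red (near white in N2 forelimb 1) and chromosome 3 blue in the N2 and N3 libraries. The N1 panel varies most between libraries.

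Over the 18 chromosomes, which share read mapping and templates, the mean relative share correlated with the mean GC content of fragments at r = 0.47 for N1, 0.60 for N2 and 0.72 for N3. For protein-coding gene starts per Mb the values were 0.22, 0.45 and 0.44. Chromosome 7, with 42.2% GC and 13.9 starts per Mb, went the other way, at relative shares of 0.984, 0.961 and 0.947. Chromosome length correlated with the relative share at r = -0.24 for N1, -0.49 for N2 and -0.38 for N3. Occupied fragments averaged 42.8% to 44.0% GC, against 41.3% for unoccupied ones, and 46.1% to 53.2% of them overlapped a protein-coding gene, against 40.9% to 41.1% of unoccupied ones. From N3, 0.705% ± 0.299 of the fragments under 35% GC were occupied, and 3.15% ± 1.04 of those between 45% and 50% (SD, n = 9).

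Longer fragments were occupied more often. From N3, 0.611% ± 0.361 of the fragments under 500 bp were occupied, against 2.53% ± 0.84 of those of 2000 to 5000 bp and 7.86% ± 1.74 of those of 10000 bp or more. The N1 values for the shortest and longest class were 0.0908% ± 0.0563 and 0.261% ± 0.123. Mean fragment length of a chromosome correlated with its relative share at r = 0.11 for N3, 0.23 for N2 and 0.14 for N1.

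Gene-rich regions were occupied more often than gene-poor ones in every library. The 471 windows of 5 Mb were ranked by protein-coding gene starts and cut into classes of 157, with medians of 14.6 starts per Mb in the gene-rich and 2.60 in the gene-poor class. From N3 the gene-rich share was 1.31 ± 0.07 times the gene-poor share (SD, n = 9), with libraries from 1.23 to 1.45. From N2 it was 1.32 ± 0.09 times, with libraries from 1.18 to 1.47, and from N1 1.42 ± 0.18 times, with libraries from 1.25 to 1.86. Each had the smallest p of the exact sign-flip test, 0.00391. Among fragments with reads in at least 1 of the 27 libraries the log2 ratio was smaller, 0.19 for N1, 0.093 for N2 and 0.080 for N3, against 0.50, 0.40 and 0.39 over all fragments. As that set was picked by the same reads, it holds more fragments where contacts are more frequent, and the 2 sizes cannot be compared directly.

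Distal chromosome ends were occupied more often than the average. The last 10 Mb of the chromosomes had an occupied share 1.26 ± 0.02 times that of all 18 chromosomes from N3 (SD, n = 9), 1.17 ± 0.06 times from N2 and 1.29 ± 0.12 times from N1. The centromeric ends, mouse chromosomes being acrocentric, were below the average from N3, at 0.912 ± 0.021 for the first 10 Mb of mapped sequence. Distal ends had 10.5 protein-coding gene starts per Mb and a mean GC content of 43.4%, and centromeric ends 6.12 and 40.8%.

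No chromosome passed an adjusted p of 0.05 between the 6 limb and 3 liver libraries by the exact permutation test, whichever the viewpoint (0% of 18 from N1, 0% from N2, 0% from N3). With 84 arrangements the smallest p is 0.0119, which gives a single chromosome an adjusted p of 0.214, so at least 5 chromosomes at that minimum would have been needed. At an unadjusted p under 0.05 N3 had 2 chromosomes, 11 and 18, while N1 and N2 had 0.

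The smallest p belonged to chromosome 11 from N3. Its relative share was 1.09, 1.09 and 1.04 in forelimb, 1.06, 1.08 and 1.06 in hindlimb, and 1.19, 1.14 and 1.21 in liver. The ranges of the limb and liver libraries did not overlap, which held for 1 of 18 chromosomes from N3 and 0 of 18 from N1 and from N2. With so many chromosomes compared, this alone does not set chromosome 11 apart. The log2 difference, limb minus liver, was -0.14 (exact permutation p = 0.0119, adjusted p = 0.214). Needing at least 5 reads per fragment gave -0.099 (exact permutation p = 0.119). edgeR's quasi-likelihood test on the occupied counts of the 18 chromosomes gave chromosome 11 an adjusted p of 0.00117.

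The difference was not limited to 1 window. Of its 25 windows of 5 Mb, 20 were lower in limb and 5 higher, with a median log2 difference of -0.13, against 237 higher and 225 lower and a median of 0.011 over all 462 windows tested. These windows are parts of the total for which chromosome 11 was picked, in the same libraries, so their direction is no separate support. Over lone fragments the difference on chromosome 11 was -0.040 (exact permutation p = 0.179). From N2 the limb mean was 1.10 and the liver mean 1.15 (exact permutation p = 0.274). From N1 the limb mean was the higher one, 1.11 against 1.05, a log2 difference of 0.092 (exact permutation p = 0.524).

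Chromosome 9 from N2, named here after its values were seen, had relative shares of 0.996, 0.911 and 1.01 in forelimb, 1.06, 1.26 and 1.04 in hindlimb, and 1.14, 1.22 and 1.18 in liver. Hindlimb replicate 2 lay above all livers, and the exact permutation p was 0.107, or 0.0179 without that library. Leaving out any other single library gave exact permutation p-values from 0.125 to 0.25, and needing at least 2 reads per fragment gave 0.274. edgeR on the 18 chromosomes gave it an adjusted p of 0.0213. Over lone fragments the log2 difference was -0.053, against -0.18 over all. From N3 the limb and liver means of chromosome 9 were 1.07 and 1.06, a log2 difference of 0.013 (exact permutation p = 0.643). From N1 the log2 difference was -0.20 (exact permutation p = 0.214).

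**Figure D3:**
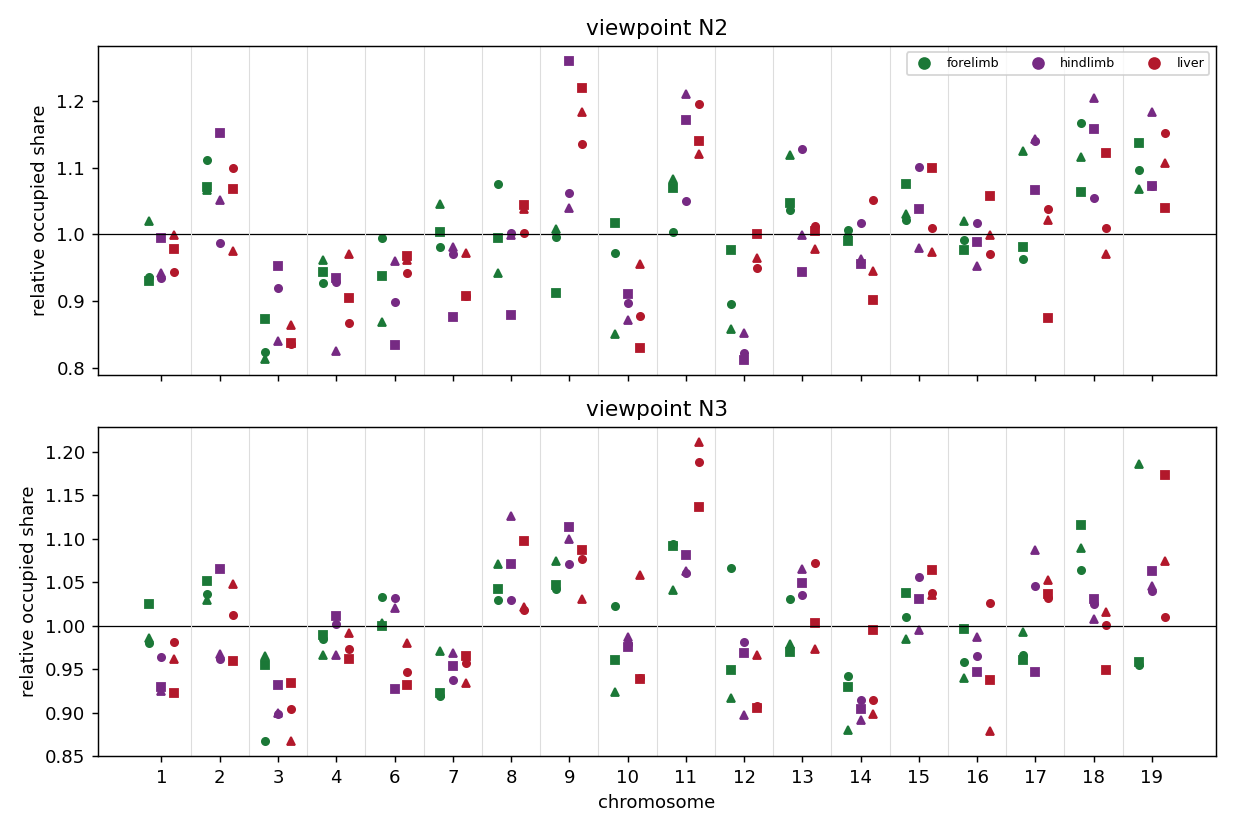
Relative share of each of the 18 chromosomes by tissue for viewpoints N2 (top) and N3 (bottom), with 1 point per library, replicates 1, 2 and 3 as circles, squares and triangles, and a line at 1. Chromosome 11 from N3 is the one chromosome in these panels for which all 3 livers lie on the same side of the limb range.

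On a finer scale no 5-Mb window passed the test. With edgeR's quasi-likelihood test on the number of occupied fragments per window, 0 of 462 windows from N3 (0%) and 0 of 295 from N2 (0%) passed an adjusted p of 0.05 between limb and liver, and 0 (0%) passed between forelimb and hindlimb from either viewpoint. At an unadjusted p under 0.05 there were 34 windows for N3 and 18 for N2 between limb and liver, and 15 and 18 between forelimb and hindlimb. DESeq2 also called 0 in these 4 comparisons. No N1 window of this size passed the filter on low counts. The largest absolute log2 difference between limb and liver was 0.74 for N3 and 1.05 for N2.

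Other window sizes brought single calls from N3. Between limb and liver these were 1 of 236 windows of 10 Mb and 1 of 989 windows of 2 Mb. Between forelimb and hindlimb they were 0 of 236 and 2 of 989. A 10-Mb window on chromosome 17 (20000001 to 30000000) was 1.05, 0.964 and 0.918 times the average of the 18 chromosomes in forelimb, 1.24, 0.87 and 1.01 in hindlimb, and 1.18, 1.45 and 1.63 in liver (edgeR adjusted p = 0.00412). A 2-Mb window on chromosome 11 (34000001 to 36000000) had a limb mean of 0.994 and a liver mean of 1.79 (edgeR adjusted p = 0.0327). Its limb libraries ran from 0.703 to 1.328, and its livers were at 1.756, 1.331 and 2.285. The 2-Mb windows on chromosome 9 (114000001 to 116000000) and chromosome 17 (74000001 to 76000000) were lower in forelimb than in hindlimb, with means of 0.678 against 1.60 and 0.549 against 1.46 (edgeR adjusted p = 0.0427 for both).

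Windows around genes of limb, cartilage, liver and red cells were also tested. From N3, 0 of the 20 windows that hold starts of 20 limb and cartilage genes passed the test, 10 being higher and 10 lower in limb, with a median log2 difference of -0.010. The window of *Hoxd13*, a digit-patterning transcription factor, had relative shares of 1.23 ± 0.21 in limb (SD, n = 6) and 1.05 ± 0.06 in liver (SD, n = 3), with edgeR adjusted p = 0.869. That of *Col9a1*, a cartilage collagen, had 0.789 ± 0.185 and 0.895 ± 0.120 (edgeR adjusted p = 0.944), and that of *Acan*, the cartilage proteoglycan aggrecan, 1.10 ± 0.16 and 0.950 ± 0.081. That of *Tbx15*, a T-box factor of skeletal development, had 0.977 ± 0.078 and 1.11 ± 0.07.

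Of 14 windows for 15 liver and foetal red cell genes, 0 passed, 6 being higher and 8 lower in limb, with a median of -0.015. The α-globin window of *Hba-a1*, on chromosome 11, had 1.18 ± 0.09 in limb and 1.34 ± 0.07 in liver (log2 difference -0.17, edgeR adjusted p = 0.939). The window of *Ahsg*, the foetal plasma protein fetuin A, had 1.05 ± 0.18 and 1.22 ± 0.07. The window of *Serpina1a*, a secreted protease inhibitor, had 1.25 ± 0.12 and 1.07 ± 0.15, and that of *Apoa2*, an apolipoprotein, 0.978 ± 0.174 and 1.09 ± 0.16. Of the 7 windows for other loci the study selected, 0 passed, 4 being higher and 3 lower, with a median of 0.055. The window of *Chst11*, a chondroitin sulfotransferase gene, had 1.24 ± 0.17 in limb and 1.12 ± 0.16 in liver, and that of *Id4*, an inhibitor of helix-loop-helix transcription factors, 1.43 ± 0.16 and 1.54 ± 0.30. From N2, 0 windows of any list passed, with medians of -0.12 over 18, -0.0066 over 13 and 0.0077 over 6 windows, against -0.0075 over all 295. The median relative share of windows in these lists was 1.12, 1.14 and 1.18 from N3, against 1.00 over all windows tested. From N2 it was 1.14, 1.17 and 1.24, against 1.12 over all.

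The gene-rich over gene-poor ratio was lower in limb than in liver from N3. The 6 limb libraries had ratios from 1.23 to 1.34 (median 1.27), and the livers 1.45, 1.39 and 1.31, so liver replicate 3 lay within the limb range. The log2 difference was -0.12 (exact permutation p = 0.0238). With labels exchanged only within a replicate number it was p = 0.0741, and without liver replicate 1 the difference was -0.084 (exact permutation p = 0.107). The difference was -0.088 for N2 (exact permutation p = 0.226) and 0.079 for N1 (p = 0.619).

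Chromosome 5 itself, beyond 10 Mb from the viewpoint, was set against these chromosomes. Its occupied share was 1.16 ± 0.12 times that of the other autosomes from N3, 1.33 ± 0.46 times from N2 and 1.64 ± 0.75 times from N1 (SD, n = 9). The livers gave 1.18, 1.19 and 1.43 from N3, and the limb libraries 1.03 to 1.17, with no overlap. The log2 difference, limb minus liver, was -0.20 with the smallest exact permutation p, 0.0119. It was -0.11 without liver replicate 3 (exact permutation p = 0.0714), -0.015 beyond 50 Mb (p = 0.857) and -0.033 over lone fragments (p = 0.405). Liver replicate 3 had 3.48 times from N1 and 2.51 times from N2, above all other libraries of these viewpoints, where limb and liver did not differ beyond their spread (exact permutation p = 0.56 and p = 0.143).

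**Figure D4:**
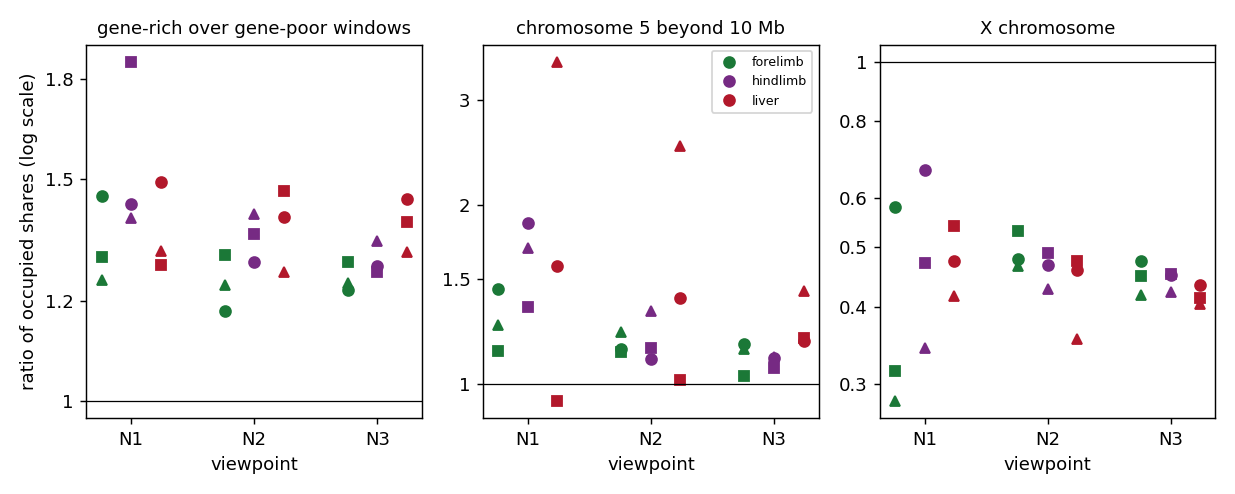
Ratio of occupied shares for gene-rich over gene-poor windows, chromosome 5 beyond 10 Mb over the other autosomes, and the X chromosome over the mean of the 18 autosomes, on log axes, with 1 point per library and replicates 1, 2 and 3 as circles, squares and triangles. All gene-rich ratios lie above 1 and all X ratios below 1. Liver replicate 3 is the highest point of each viewpoint for chromosome 5.

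Most contacts were seen in 1 library only. Over the 9 libraries of a viewpoint, 9344 fragments were occupied at least once from N1, 34403 from N2 and 92046 from N3. Of these, 87.1%, 77.9% and 67.2% were occupied in a single library, and 6, 440 and 1678 fragments in all 9. Only 203 fragments were occupied from all 3 viewpoints. Of the fragments occupied in 1 N3 library, a median of 28.1% (16.9% to 37.9%) were occupied in another library of the same tissue, and 29.8% (15.7% to 37.4%) between limb and liver. For N1 the medians were 6.69% and 6.59%.

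Sharing a template made a difference within the range of the other pairs. Libraries of the same tissue and replicate from N3 and N2 shared a median of 1.96% of the N3 fragments (0.964% to 2.64%), and those of another tissue or replicate 1.70% (0.861% to 2.67%). As a share of the N2 lists the medians were 5.79% and 5.35%.

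Most of the fragments that recurred in 7 to 9 libraries from N1, and a smaller share of those from N3, carried the end of their own nested primer. Of the 20 fragments occupied in 7 to 9 of the N1 libraries, 18 (90%) contained the last 10 bases of the N1 primer or more, against 0.593% of the unoccupied fragments. The nested primers of N2 and N3 matched 2 and 0 of the 20, and the biotinylated N1 primer of the first extension matched 1. For N3, 18.5% of the 3052 fragments occupied in 7 to 9 libraries matched the N3 primer, against 1.68% of the unoccupied ones, while the nested N1 and N2 primers matched 1.51% and 1.67% and the biotinylated N3 primer 2.46% (0.536% of the unoccupied). Median lengths of these recurrent fragments were 4.71 kb for N1 and 4.88 kb for N3, against 1.88 and 1.71 kb for the unoccupied ones, and a longer fragment has more room for a match.

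For N2 the shares were lower. Of 830 fragments occupied in 7 to 9 N2 libraries, 3.86% matched the N2 nested primer, 4.10% the N3 nested primer and 5.90% the biotinylated N2 primer, with 0.68%, 2.09% and 0.99% among unoccupied fragments. Fragments with at least 10 bases of the own nested primer held 5.59% to 34.8% of the reads on the other autosomes from N1, 24.6% to 41.5% from N3 and 1.47% to 3.57% from N2.

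**Figure D5:**
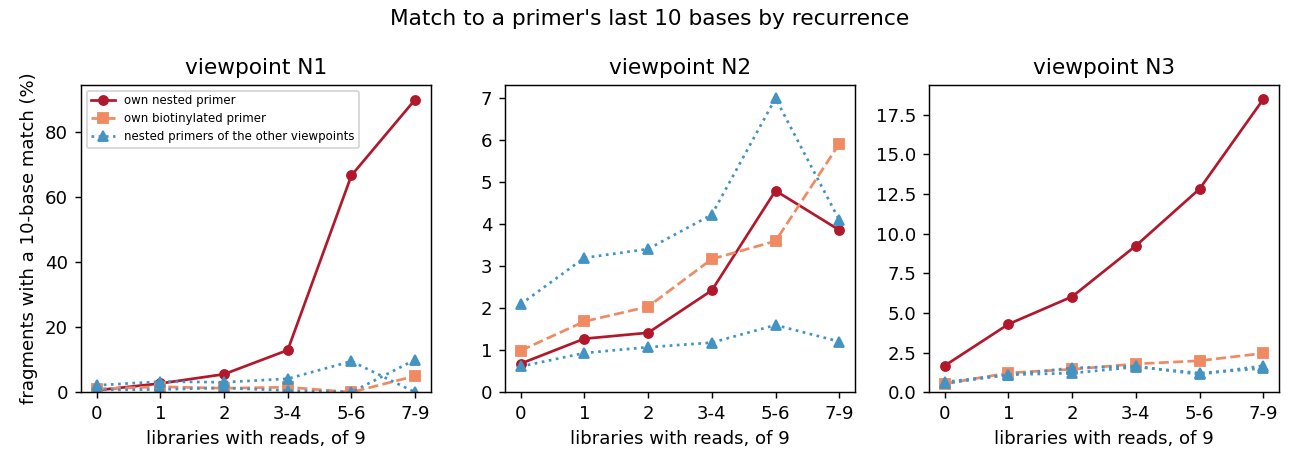
Percentage of fragments that contain the last 10 bases of a primer, by the number of the viewpoint's 9 libraries in which the fragment was occupied, for the own nested primer, the own biotinylated primer and the nested primers of the other viewpoints; the vertical scales differ. For N1 and N3 the own nested primer rises to 90% and 18.5%, while other primers stay at or below 10%.

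Fragments with high recurrence from N1 show what was matched. Each site is written 5′ to 3′ in the direction of the primer, with capitals for the unbroken run that equals the primer's end.
N1 site, chr14:104146979-104146998, minus strand: ttgagttggGCCACCCAAAC
N1 site, chr6:91294257-91294276, plus strand: gagcccTTTGCCACCCAAAC
N1 site, chr2:110138177-110138196, plus strand: actgagttgGCCACCCAAAC
The sites on chromosomes 14 and 6 lay outside protein-coding genes and that on chromosome 2 in an intron of *Ccdc34*. They matched the last 11, 14 and 11 bases of the 20-base primer. The fragment on chromosome 14 held 514, 198 and 47 reads in forelimb, 196, 190 and 31 in hindlimb and 123, 198 and 22 in liver, so it was high in some libraries of each tissue. The fragment on chromosome 2 and its neighbour, which was also occupied in all 9 libraries and has no such match, held equal numbers in 5 of the 9 libraries. None of these N1 fragments was occupied in an N2 library, and they were occupied in 1 or 2 N3 libraries.

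From N3, sites for 2 of the 5 leading fragments had longer runs, 15 and 16 of the 24 primer bases.
N3 site, chr16:90493820-90493843, plus strand: tgtaaaaggAGCAGACACAGAGAT
N3 site, chr4:24512205-24512228, minus strand: tctgttcaTAGCAGACACAGAGAT
They lay in introns of *Hunk*, a kinase gene, and *Mms22l*, a DNA repair gene. The fragment at *Hunk* held 28823 to 88399 reads in the 6 limb libraries and 82447, 80118 and 254012 in the livers. Limb and liver overlapped there, with hindlimb replicate 3 at 88399. The other 3 carried no run of 8 or more bases of the N3 nested primer: chr11:113502991-113508107 in an intron of *Slc39a11*, a zinc transporter gene, chr14:63576845-63583323 outside genes and chr9:49389217-49392855 in an intron of *Drd2*, a dopamine receptor gene.

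None of the first 5 N2 fragments held a run of 8 or more bases of the N2 nested primer. The leading one, chr7:125803888-125813905 at *D430042O09Rik*, held 17901 to 128068 reads in forelimb, 5643 to 122350 in hindlimb and 8960 to 90362 in liver. The second, chr2:133569977-133579327, lay 7.09 kb from *Bmp2*, a bone morphogenetic protein gene, and was occupied in all 9 N3 libraries too. The other 3 lay in introns of *Actn2*, a muscle actinin gene, *Brinp2* and *Arhgef4*. The last 11 bases of the biotinylated N2 primer were found in the fragment near *Bmp2*, and 8, 9 and 9 in those at *Actn2*, *Brinp2* and *Arhgef4*. Runs of similar length came from primers of other viewpoints too. The fragment at *D430042O09Rik* held 10 bases of the biotinylated N1 primer. Among the N3 fragments, that at *Slc39a11* held 10 of the nested N1 primer and that at *Drd2* 10 of the nested N2 primer. How often such short runs occur in fragments of this length was not tested. Whether priming at such sites gave rise to any of these fragments was not tested. Leaving out all fragments with at least 10 bases of the viewpoint's own nested primer gave 10 chromosome calls for N2 (10 before) and 10 for N3 (9 before). Fragments that matched only a biotinylated primer stayed in.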

How the data were processed

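The authors amplified 4C template from the N1, N2 and N3 viewpoints, sequenced it, trimmed it with cutadapt 1.10 and mapped it with BWA 0.7.10-r789, per the submitters' processing notes and the study's methods, which also state removal of blacklisted regions and of low mapping qualities. The deposited values are raw counts of reads per BglII fragment of GRCm38, with 1 table per library. Every BglII site of the GRCm38.p6 reference coincided with a fragment end. Titles gave the replicate numbers: the hindlimb libraries titled replicate 3 carry the number 1 in another label, and N3 liver descriptions name enhancer 1.

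Occupied and relative shares, GC content, primer runs and GENCODE M21 protein-coding genes were computed per fragment. Single values were tested by exact permutation or sign-flip tests. Windows were tested with edgeR 4.0.16 (quasi-likelihood, library size set to all occupied fragments on the 18 chromosomes, filterByExpr), in R 4.3.3, and DESeq2 1.42.0 was run as a check. The permutation and window tests were tested on simulated data. Adjustment was by Benjamini-Hochberg. Permutation p-values measure the spread between libraries. Whether all libraries of a viewpoint came from separate pools of embryos was not settled.

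Named were, per viewpoint, the 3 highest and 3 lowest chromosomes, windows under the threshold, up to 4 windows per gene list and the 5 fragments occupied in most libraries (ties by median reads), of which 1 is not reported here. The chromosomes, gene lists and tests were chosen with earlier results of these data known. Correlations of same-numbered deviations over 465 windows ran from -0.11 to 0.10. With windows this sparse, they cannot exclude that tissues of 1 replicate number came from the same embryos. Tests without a block treat all libraries as separate pools. Reads carry no molecular identifiers, so amplified copies cannot be told from separate contacts. Alternatives changed the reads needed, neighbouring fragments, denominators, fragment sets, window size, normalization and left-out libraries.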

Additional observations from a re-analysis of the deposited data

Results flagged for a closer look

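Among 63 values tested over the 6 limb libraries of a viewpoint, 5 had 1 library apart from the rest; chance marks about 1 in 20. From N1, hindlimb replicate 2, with the fewest reads, had a gene-rich over gene-poor ratio of 1.86. Forelimb replicate 3 had a relative share of 0.546 on chromosome 1, and forelimb replicate 1 had 0.825 on chromosome 18. From N2, hindlimb replicate 3 had 0.826 on chromosome 4. From N3, hindlimb replicate 2 had 0.927 on chromosome 6.

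The sex chromosomes lie outside the comparisons. The X chromosome had a mean occupied share of 0.454 (N1), 0.461 (N2) and 0.435 (N3) times the mean of the 18 autosomes. The Y chromosome held at most 26 occupied fragments in a library.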

How the results depend on the processing

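Among alternative values of the main comparisons, 405 kept their direction and side of the threshold (counts within 1.5 times), 7 turned direction, 8 lost and 4 gained a call, and 11 counts moved further. Chromosome calls against the library mean (main 0, 10 and 9 for N1, N2 and N3) came to 2 for N1 with neighbours taken once. For N2 they were 6 with at least 5 reads, 6 without fragments of several viewpoints and 6 without recurrent fragments. Among fragments with reads in any library, a set picked by these same reads, they were 0 for N2 and 0 for N3. There the log2 relative share turned for chromosome 11 (-0.029 for N2, -0.040 for N3), chromosome 3 (0.015, N3) and chromosome 7 (0.0080, N3). Between limb and liver, edgeR on 18 chromosomes called 1 for N2 and 1 for N3. Windows from N3 gave 1 call at 2 Mb and 1 at 10 Mb between limb and liver, and 2 at 2 Mb between forelimb and hindlimb.

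The limb-minus-liver log2 difference of distant chromosome 5 was 0.33 for N1 and -0.015 for N3 beyond 50 Mb, and 0.34, 0.087 and -0.033 for N1, N2 and N3 over lone fragments. Leaving out 1 library gave -0.71 to 0.24, -0.67 to -0.017 and -0.25 to -0.11, where liver replicate 3 turned N1 and ended the N3 call. For the gene-rich ratio it was -0.012 (at least 2 reads) and -0.14 (lone) for N1, and 0.013 (at least 5 reads) and -0.19 (lone, exact permutation p = 0.0119) for N2. For N3, leaving out 1 library gave -0.15 to -0.084, and hindlimb 1 or 2 or liver 1 or 2 ended the call. The occupied share gave -1.45 to -0.60, -1.25 to -0.49 and -0.83 to -0.25 for the 3 viewpoints. In a block of equal replicate number, the N3 gene-rich difference of -0.12 had an exact permutation p of 0.0741, and no other call between tissues changed. The sign-flip calls, of chromosomes against the library mean and of gene-rich over gene-poor windows, were not tested in blocks. Whether these numbers pair the samples was not settled. The cause of these changes was not tested. No N1 window of 5 Mb passed the filter; without it 464 were tested and edgeR called 0 (18 at unadjusted p under 0.05 between limb and liver, 27 between forelimb and hindlimb). Calls over the 18 N1 chromosomes were not run with at least 2 or 5 reads or lone fragments, where some chromosome had no occupied fragment in a library. The primer, recurrent-fragment, per-Mb gene ratio and lone-fragment alternatives were chosen after seeing the data.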
